A study of Mus musculus with 8 samples.

Results

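The transcription factors that drive the epithelial-mesenchymal transition (EMT), with vimentin, were compared between mammary epithelial cells carrying mutant and wild-type ShcA. The genes were Snai1, Snai2, Twist1, Twist2, Zeb1, Zeb2, Foxc2, Prrx1 and Vim. Every non-control probe that the array files name for one of them was taken, which gave 12 probes for 9 genes, out of 39429 probes for 30222 gene names in all. The samples were NMuMG-NT2197 cells, a derivative of the mouse mammary epithelial line NMuMG, and all of them carried a pMSCV/hygro vector with a ShcA cDNA. In 4 samples that cDNA was wild type, and in 4 it was R175Q, a mutant with glutamine in place of an arginine. ShcA is an adaptor protein that couples activated receptor tyrosine kinases to downstream signalling. The labels do not say whether the cells were clones or pools, or whether the 4 samples of a group came from separate cultures, so the p-values measure the spread between these samples, which may be technical.

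EMT is a change of state in which epithelial cells lose tight and adherens junctions and gain motility and matrix-producing genes. The Snail factors (Snai1, Snai2) and the Zeb factors (Zeb1, Zeb2) are zinc finger proteins that repress junction genes such as Cdh1 through E-boxes, short promoter motifs of the form CAGGTG. Twist1 and Twist2 are basic helix-loop-helix factors, Foxc2 is a forkhead factor and Prrx1 a homeodomain factor, all of them inducers of the mesenchymal state in development or in tumours. Vim encodes vimentin, the intermediate filament protein of mesenchymal cells, which cultured epithelial lines often carry as well.

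The arrays had 2 colours, with the sample labelled in Cy3 and the same reference RNA labelled in Cy5 throughout. A level is therefore the log2 of Cy3 over Cy5, and levels of different probes are not comparable with each other. Well above background in Cy3 were 53.7% to 63.0% of the spots, and no spot was saturated. Slide 1 held R175Q replicate 1, slide 2 R175Q replicate 2 and wild-type replicate 1, slide 3 R175Q replicate 3 and wild-type replicates 2 and 3, and slide 4 replicate 4 of both groups. The number of arrays limits the precision of every value. Of 22849 probes tested, 1807 were higher and 2221 lower in R175Q at an adjusted p under 0.05 (limma). The higher probes made up 44.9% of those called, and 77.4% when arrays were centred on their medians instead of by loess.

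Of the 12 probes, 8 stood well above background on all 8 arrays and were tested. Higher in R175Q were 5 of them, 1 each for Snai1, Twist2, Foxc2, Zeb1 and Zeb2. None was lower (limma; 0 at an unadjusted p under 0.05 as well), and the probes for Snai2 and Vim and another for Zeb2 did not pass. Over all tested probes 7.91% were called higher and 9.72% lower. For the Snai1, Twist2, Foxc2 and called Zeb2 probes every R175Q value exceeded every wild-type value, and 9.88% of all tested probes were separated in that direction. The other 4 probes, for Twist1, Prrx1 (both of its probes) and Zeb2, were left out by the filter on dim spots. All rises were below 1 on the log2 scale.

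**Figure D1:**
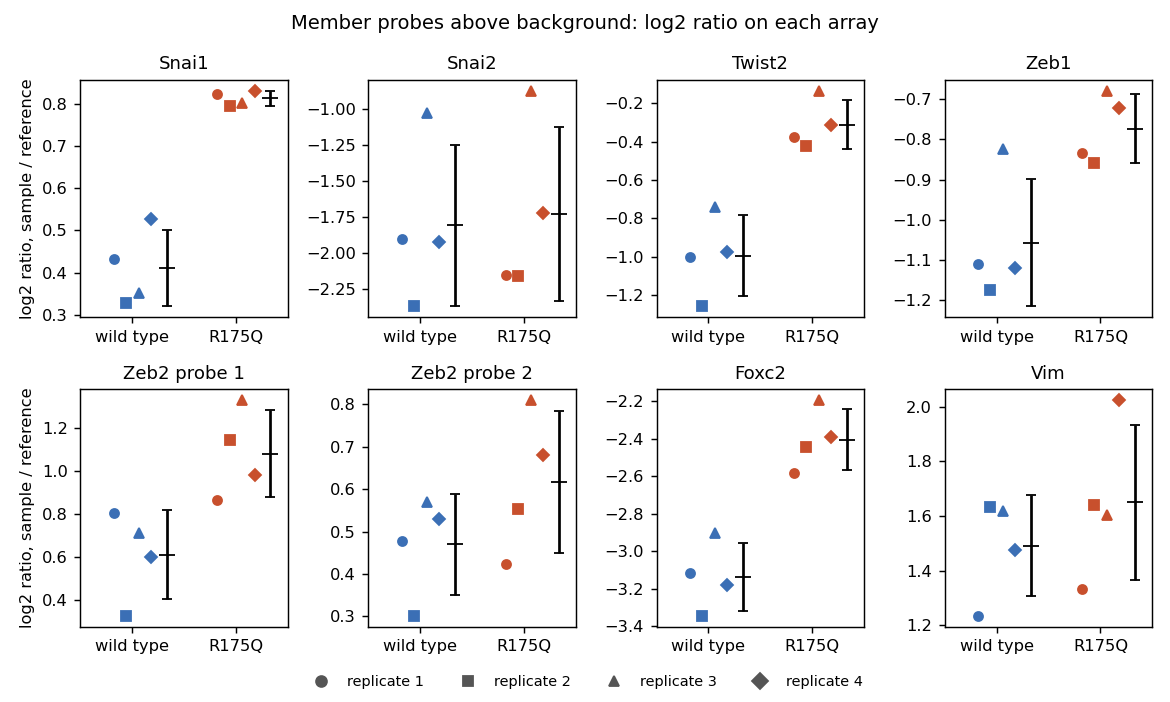
Log2 of Cy3 (sample) over Cy5 (reference) on each of the 8 arrays for the 8 member probes above background, in wild-type (blue) and R175Q (orange) samples, with replicate numbers as marker shapes and the mean and SD as black bars; each panel has its own axis. The R175Q values of Snai1 lie between 0.80 and 0.83, above all wild-type values, while the groups overlap for Snai2, Zeb1, the second Zeb2 probe and Vim.

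The probes of the 3 genes with the clearest separation are given by the first 30 of their 60 bases, as the array design lists them, to show what was measured. Probe coordinates are given in mm9, as in the files. No gene model of that build was used, so exon and UTR positions of the probes are not stated.
Snai1: gtttcacagcagtttaactgtctcagaagg
Twist2: ttattgagatattttaccagctaagtgact
Foxc2: cacaccaaaagactttaaaatttcaatctc

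Snai1, the Snail repressor that acts early in many forms of EMT, was higher in R175Q. Its probe is at chr2:167368073-167368132 on the plus strand. The log2 ratio was 0.82, 0.80, 0.80 and 0.83 in R175Q replicates 1 to 4, and 0.43, 0.33, 0.35 and 0.53 in wild-type replicates 1 to 4. All 4 R175Q values lay above all 4 wild-type values, and they were close to each other (SD 0.017, against 0.09 in wild type). Snai1 rose by 0.40 ± 0.06 (SE, n = 4 per group), or 1.32-fold (limma, adjusted p = 0.00132). The 3 slides that held both groups gave differences of 0.37, 0.46 and 0.31, and a fit that blocked on slide gave 0.39 (adjusted p = 0.0136). With a background fitted on all spots the difference was 0.37 (limma, adjusted p = 0.0462). Slides 2, 3 and 4 then gave 0.41, 0.49 and 0.06. In bulk RNA, a change in the number of cells with a transcript and a change in its amount per cell cannot be told apart.

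Snai2, which encodes Slug, the other Snail factor of the list, did not pass. Its probe is at chr16:14709361-14709420 on the plus strand. The log2 ratio was −2.16, −2.16, −0.88 and −1.73 in R175Q and −1.91, −2.37, −1.03 and −1.93 in wild type. Replicate 3 was the highest of both groups, and these 2 arrays shared slide 3. The other array of that slide, wild-type replicate 2, was the lowest of all, at −2.37. The difference was 0.08 ± 0.32 (adjusted p = 0.901), with a 95% interval from −0.64 to 0.80. Changes as large as those called for Twist2 and Foxc2 lie inside that interval, which leaves the replicate number out. With the replicate number as a block the standard error was much smaller, and the difference was 0.08 ± 0.09 (limma, adjusted p = 0.57). Within the slides it was −0.26, 0.83 and 0.20, and it turned to −0.20 without R175Q replicate 3 and to −0.11 without wild-type replicate 2.

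Twist2, a Twist factor of mesenchymal precursors, was higher in R175Q. Its probe is at chr1:93744519-93744577 on the plus strand. The log2 ratio was −0.37, −0.42, −0.13 and −0.31 in R175Q and −1.001, −1.26, −0.74 and −0.97 in wild type. The groups did not overlap, and replicate 3 was the highest of both. Twist2 rose by 0.68 ± 0.11, or 1.60-fold (adjusted p = 0.00177). Slides 2, 3 and 4 gave 0.58, 0.87 and 0.66, and blocking on slide gave 0.72 (adjusted p = 0.0176).

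Twist1, the relative of Twist2 best known from metastasis, was not well above background in Cy3 on any of the 8 arrays. Its Cy3 signal less local background was 28.3 to 36.1 in R175Q and 15.2 to 27.5 in wild type, in scanner units. Medians of the negative control spots were 13.1 to 22.7 per array. In the reference channel the same probe gave 531 to 795, so it hybridised. No difference was called with the filter left out, at −0.09 ± 0.10 (adjusted p = 0.714), and no fold is given for a probe that no array of either group showed well above background.

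Foxc2, the forkhead factor, was the member with the largest difference, and also a dim one. Its probe is at chr8:123642693-123642752 on the plus strand. The log2 ratio was −2.58, −2.45, −2.19 and −2.39 in R175Q and −3.12, −3.34, −2.90 and −3.18 in wild type. All R175Q values lay above all wild-type values. The Cy3 signal less local background was 175.5, 160.1, 232.8 and 165.0 in R175Q and 80.0, 67.6, 126.5 and 81.1 in wild type. Foxc2 rose by 0.73 ± 0.11, or 1.66-fold (adjusted p = 0.00109), with 0.67, 0.93 and 0.79 on slides 2, 3 and 4 and 0.81 when slide was blocked (adjusted p = 0.00754). The value depended on the background: with a background fitted on all spots in place of the negative control spots, the difference was 0.0080 (adjusted p = 0.991), and the slides gave −0.72, −0.39 and 1.30. That fit put the Cy3 background of the arrays between −690 and −0.369, below the medians of the negative control spots.

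**Figure D2:**
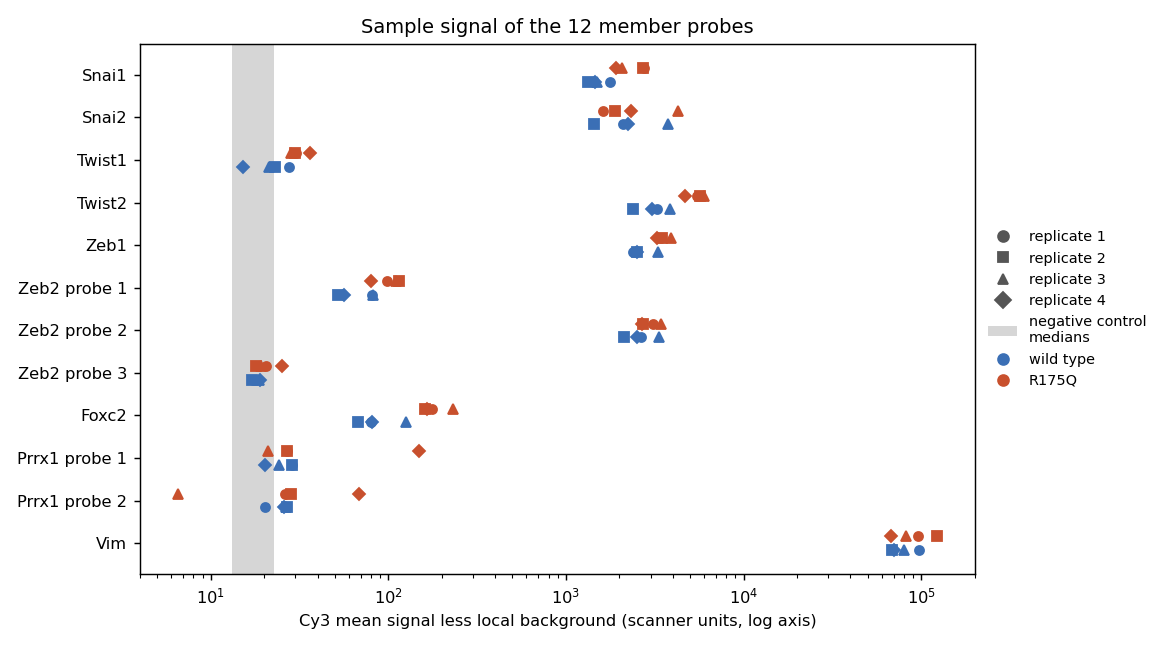
Cy3 mean signal less local background, in scanner units on a log axis, for the 12 member probes on each array, with wild type in blue, R175Q in orange, replicate numbers as marker shapes and the range of the negative control medians as a grey band. The Foxc2 probe and the first Zeb2 probe lie near the band, the Twist1 probe and the third Zeb2 probe at it, and Vim far above it at 68033 to 122996.

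Zeb1, a Zeb repressor of Cdh1 and of the miR-200 family, passed narrowly. The log2 ratio was −0.83, −0.86, −0.68 and −0.72 in R175Q and −1.11, −1.18, −0.82 and −1.12 in wild type. Wild-type replicate 3 reached into the R175Q range. Zeb1 rose by 0.28 ± 0.09, or 1.22-fold (adjusted p = 0.0449), with 0.25, 0.32 and 0.40 within the slides. It no longer passed with slide as a block, at 0.32 (adjusted p = 0.0825), nor without any single array other than wild-type replicate 3, where its difference was 0.24 to 0.31 and its adjusted p 0.0641 to 0.114. Nor did Zeb1 pass with the background fitted on all spots, at 0.22 (limma, adjusted p = 0.193).

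Zeb2, the second Zeb repressor, had 3 probes that did not give the same call. They are shown side by side by the first 30 of their 60 bases, because the result for this gene depends on which one is read.
Zeb2 probe 1: tacgtgggggaaaatatatgtgaaagcaat
Zeb2 probe 2: ctgtattttcgactgaaaattccactttct
Zeb2 probe 3: cttactgtaccgccgtgtgcattccctcat

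Probes 1 and 2 carry the same RefSeq transcript in the files and lie at chr2:44840038-44840097 and chr2:44842774-44842833, both on the minus strand. Probe 1 was dim, with Cy3 signals of 51.8 to 115.2. Its log2 ratio was 0.86, 1.14, 1.33 and 0.98 in R175Q and 0.80, 0.32, 0.71 and 0.60 in wild type, with no overlap. It rose by 0.47 ± 0.12, or 1.38-fold (adjusted p = 0.0251), with 0.34, 0.81 and 0.38 within the slides. The call was lost in 12 of 28 alternatives, among them the removal of R175Q replicate 2 (0.45, adjusted p = 0.0663), R175Q replicate 3 (0.39, adjusted p = 0.0641), wild-type replicate 2 (0.37, adjusted p = 0.0537) or wild-type replicate 4 (0.46, adjusted p = 0.0601). It was also lost with the background fitted on all spots, at 0.42 ± 0.21 (limma, adjusted p = 0.378). Slides 2, 3 and 4 then gave 0.55, 1.08 and −0.145.

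Probe 2 was bright, with Cy3 signals of 2116 to 3422. Its log2 ratio was 0.42, 0.55, 0.81 and 0.68 in R175Q and 0.48, 0.30, 0.57 and 0.53 in wild type, and the groups overlapped. The difference was 0.15 ± 0.09 (adjusted p = 0.329), with a 95% interval from −0.06 to 0.35. That interval does not reach the 0.47 of probe 1, but it overlaps the 95% interval of probe 1, from 0.20 to 0.74. The difference between the probes was not tested. Probe 3, at chr2:44965914-44965973 on the minus strand, is assigned to another transcript and was not well above background in Cy3 on any array.

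Prrx1, the homeodomain factor, was likewise at background in nearly all samples. Its first probe, at chr1:165185408-165185467 on the minus strand, was well above background in R175Q replicate 4 only, with a Cy3 signal of 149.5 against 20.3 to 28.8 on the other 7 arrays. The second, at chr1:165175375-165175434 on the minus strand, was above on no array, and its highest signal, 68.6, was again that of R175Q replicate 4. With the filter left out, the differences were 0.19 ± 0.28 (adjusted p = 0.788) and 0.05 ± 0.25 (adjusted p = 0.948).

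Vim, the filament gene that EMT is often read from, was strongly expressed in both groups and did not pass. Its probe is at chr2:13504232-13504291 on the plus strand. The log2 ratio was 1.33, 1.64, 1.60 and 2.02 in R175Q and 1.23, 1.63, 1.62 and 1.48 in wild type. The groups overlapped, with R175Q replicate 4 the highest of all and replicate 1 the lowest of both groups. The difference was 0.16 ± 0.14 (adjusted p = 0.499), with a 95% interval from −0.15 to 0.47. On slides 2, 3 and 4 it was 0.41, −0.02 and 0.55, and blocking on slide gave 0.28 (adjusted p = 0.171). It did not pass in any of the 28 alternatives, with values from 0.03 to 0.29.

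**Figure D3:**
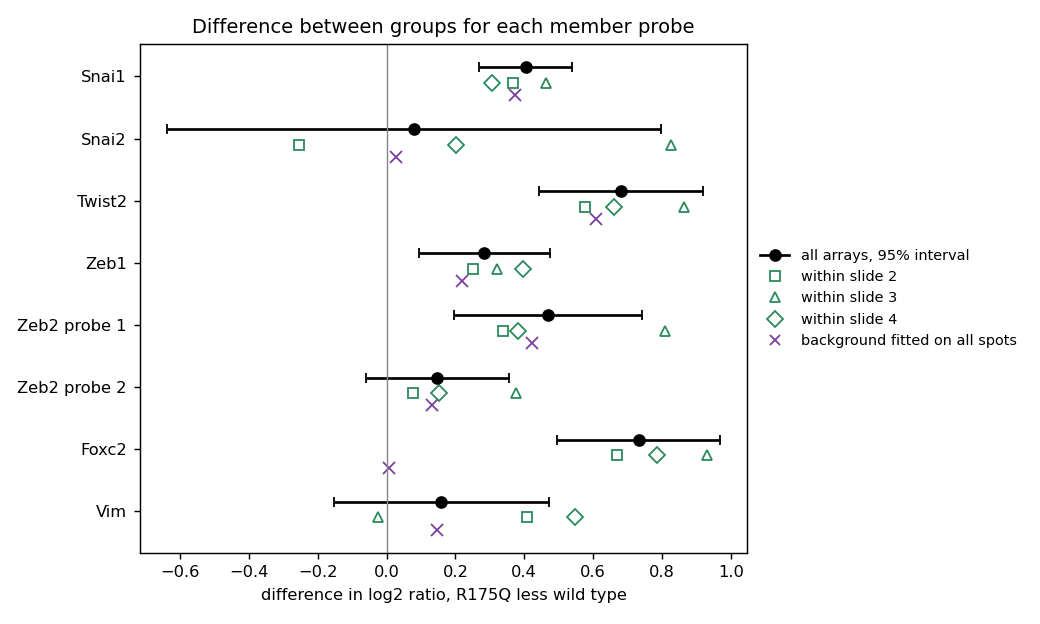
Difference in log2 ratio, R175Q less wild type, for the 8 tested member probes: black points with 95% intervals over all arrays, green open markers within slides 2, 3 and 4, and purple crosses with the background fitted on all spots. For Foxc2 the cross stands at 0.0080 and the point at 0.73, while for the other probes cross and point are close. With that background the calls of Zeb1 (limma, adjusted p = 0.193) and the first Zeb2 probe (adjusted p = 0.378) were lost as well.

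Other intermediate filament genes and vimentin's partners were read from a list of 14, of which 8 were tested. None was higher (limma; 0 at an unadjusted p under 0.05), 1 was lower and 7 did not pass, with a median difference of −0.02 against −0.01 over all 14730 genes, each by its brightest probe. Over those genes 9.39% were called higher and 9.9% lower, the shares to set beside the counts of every list below. Nes, which encodes nestin, a filament protein that assembles with vimentin, fell by 0.54 ± 0.08 (adjusted p = 0.00125). It lay at −3.29, −3.30, −3.20 and −3.27 in R175Q and −2.71, −2.93, −2.55 and −2.73 in wild type, without overlap. Nes stood at −0.58 (adjusted p = 0.0931) with the background fitted on all spots. Not called were Prph (peripherin, −0.13), Zyx (the adhesion protein zyxin, 0.17), Ina (a neuronal filament, −0.09, with another probe of the opposite sign) and Lmna (lamin A, 0.07).

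Across the 8 arrays the member probes that rose also resembled each other, which their shared difference between groups contributes to. Pearson's r between the log2 ratios was 0.988 for Twist2 and Foxc2, 0.944 for Twist2 and Zeb1, and 0.894 for Snai1 and Twist2. The lowest r among the called probes was 0.722, for Snai1 and Zeb1. Likeness was not limited to the called probes, since the bright Zeb2 probe, which did not pass, had r of 0.542 to 0.808 with them. Vim had r of 0.172 to 0.475 with the other 7 probes, and Snai2 0.0505 to 0.789. Among all genes, the log2 ratios most like Snai1 were those of Adgrg2 (r = 0.995), Pon3 (0.993) and Rsad2 (0.991). Mitf, a transcription factor of melanocytes and osteoclasts, was the closest to both Twist2 (0.996) and Foxc2 (0.994). Also among the closest were Mxd1 (0.993) for Twist2, and Ifi35 (0.994) and Vegfc (0.992) for Foxc2.

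The closest to Zeb1 were Lmbr1l (0.994), Nrbf2 (0.994) and Sqstm1 (0.993). For members that did not pass the closest genes did not pass either. Those of Snai2 were Sertad2 (0.984), Atp2a3 (0.980) and Siah2 (0.979), those of the bright Zeb2 probe Ube2b (0.989), Cxcl1 (0.970) and Btf3l4 (0.968), and those of Vim Lrpprc (0.955), Gmfb (0.954) and Etfa (0.947). These r values describe 8 arrays that share a reference and the group difference, and each gene was picked as the highest of 14730.

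Other EMT regulators, a list of 34 genes of which 31 were tested, changed in both directions. Of these 10 rose, 2 fell and 19 did not pass, with a median difference of 0.02. Tbx3, a T-box repressor, rose by 0.95 ± 0.06 (adjusted p = 7.93e-06), from −3.08 to −2.97 in wild type to −2.17 to −1.96 in R175Q. Prrx2, the close relative of Prrx1, rose by 0.79 ± 0.12 (adjusted p = 0.0012), Lats2, a Hippo pathway kinase, by 0.50 ± 0.06 (adjusted p = 0.000522), and Btrc, the ubiquitin ligase subunit that marks the Snai1 protein for degradation, by 0.34 ± 0.06 (adjusted p = 0.00377). Snai3, the third Snail gene, fell by 0.74 ± 0.10 (adjusted p = 0.000847), opposite to Snai1. It lay at −0.85, −0.61, −0.60 and −0.40 in R175Q and −0.0009, 0.19, 0.29 and 0.02 in wild type. The other fall was that of the histone deacetylase gene Hdac2, at −0.29, named after its value was seen. The number of rises was 5 without R175Q replicate 2, 4 without R175Q replicate 3, and 6 without R175Q replicate 4, wild-type replicate 1 or wild-type replicate 2, and it was 4 with slide as a block. Falls numbered 1 without R175Q replicate 1 or wild-type replicate 4, and 4 without wild-type replicate 3. With the background fitted on all spots 2 of the list rose and 0 fell, and Tbx3 (0.39, adjusted p = 0.39), Btrc (0.033, adjusted p = 0.853) and Snai3 (−0.36, adjusted p = 0.102) no longer passed.

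The epithelial marker genes were lower or did not pass, and whether the members act on them was not tested. Of 32 markers 24 were tested, and 0 rose (limma, 0 at an unadjusted p under 0.05 as well), 9 fell and 15 did not pass. Over all genes, each by its brightest probe, 9.39% were called higher and 9.9% lower. The median of the list was −0.19, at −0.20, −0.21 and −0.19 within the slides. Lsr, a protein of tricellular junctions, fell by 0.95 ± 0.07 (adjusted p = 1.57e-05), with values of 2.61, 2.63, 2.68 and 2.55 in R175Q and 3.72, 3.43, 3.57 and 3.57 in wild type. Ocln, which encodes occludin of tight junctions, fell by 0.89 ± 0.11 (adjusted p = 0.00033), and Crb3, an apical polarity protein, by 0.87 ± 0.09 (adjusted p = 0.000124). Esrp2, an epithelial splicing regulator, fell by 0.78 ± 0.07 (limma, adjusted p = 4.99e-05). Spint2, a protease inhibitor of epithelia, fell by 0.40 ± 0.06 (limma, adjusted p = 0.00176), and the keratin gene Krt8 by 0.31 ± 0.07 (adjusted p = 0.0168). The groups of all 6 did not overlap. Esrp1, the relative of Esrp2, did not pass, at 0.10 ± 0.11 (limma, adjusted p = 0.581), and was named after its value was seen. With the background fitted on all spots, 3 of the list fell, and Ocln (−0.54), Esrp2 (−0.48), Crb3 (−0.69) and Krt8 (−0.31) no longer passed.

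Cdh1, E-cadherin and the best known target of the Snail and Zeb factors, did not pass. Its mean log2 ratio was 4.73 ± 0.16 (SD, n = 4) in R175Q and 4.75 ± 0.15 in wild type, a difference of −0.01 ± 0.10 (adjusted p = 0.954). Its sign turned under several alternatives, and in the Cy3 channel alone, without the reference, it was called lower, at −0.72 (adjusted p = 0.000101). Epcam, the adhesion molecule of epithelia, differed by −0.27 ± 0.10 (adjusted p = 0.108) and passed without wild-type replicate 2 (−0.35, adjusted p = 0.0413), with the replicate number as a block (−0.27, adjusted p = 0.0178) and with arrayWeights, which weights arrays by their fit (−0.37, adjusted p = 0.00646). Krt18, the partner of Krt8, differed by −0.19 ± 0.07 (adjusted p = 0.0871) and passed with arrayWeights (−0.23, adjusted p = 0.00655). Krt8 no longer passed without R175Q replicate 1, at −0.29 (adjusted p = 0.0543), when slide was blocked, at −0.30 (adjusted p = 0.0581), with median centring, at −0.28 (adjusted p = 0.102), or with scaling between arrays, at −0.52 (adjusted p = 0.254).

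The E-box CAGGTG, or CACCTG when read on the other strand, was searched in the 250 bases before each listed start of a gene. The promoters were those of RefSeq in GRCm38.p6. For a gene with several starts, the window with the most copies counted. Ocln, for example, had 2 copies in a window and 0 in another. It was present for 5252 of 27025 genes, or 19.4%. Of the 9 members 6 had a promoter in the table, and 1 of them held it, Snai1. Of the epithelial list 12 of 21 held it, or 57.1%, among them 5 of the 6 with a promoter there that fell, and 6 of the 10 that were tested and did not pass. In other lists it was held by 0 of 15 mesenchymal genes, 2 of 23 other EMT regulators, 3 of 5 lymphocyte markers and 2 of 5 basal markers. The shares were not tested against each other. At least 3 copies were found for 78 genes in all, or 0.29%, and for 3 of the epithelial list: Lsr with 4, Crb3 with 3 and Spint2 with 3. Snai1's own window is shown as the member that holds the motif, with Lsr and Crb3, the larger falls among those with 3 or more copies. The capitals mark the motif on either strand, and a match is a description of letters, not a binding site.
Snai1 at chr2:167537945-167538194, plus strand: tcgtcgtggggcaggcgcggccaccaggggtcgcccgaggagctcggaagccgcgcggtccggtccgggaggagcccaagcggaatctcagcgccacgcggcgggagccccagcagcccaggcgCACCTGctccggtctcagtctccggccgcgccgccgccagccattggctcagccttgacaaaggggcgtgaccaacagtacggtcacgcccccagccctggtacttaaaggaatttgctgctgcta
Lsr at chr7:30973470-30973719, minus strand: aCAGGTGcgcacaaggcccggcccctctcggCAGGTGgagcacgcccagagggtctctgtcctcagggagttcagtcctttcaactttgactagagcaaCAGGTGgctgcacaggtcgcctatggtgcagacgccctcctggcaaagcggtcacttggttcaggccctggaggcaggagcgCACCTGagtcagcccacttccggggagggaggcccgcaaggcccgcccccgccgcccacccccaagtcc
Crb3 at chr17:57061951-57062200, plus strand: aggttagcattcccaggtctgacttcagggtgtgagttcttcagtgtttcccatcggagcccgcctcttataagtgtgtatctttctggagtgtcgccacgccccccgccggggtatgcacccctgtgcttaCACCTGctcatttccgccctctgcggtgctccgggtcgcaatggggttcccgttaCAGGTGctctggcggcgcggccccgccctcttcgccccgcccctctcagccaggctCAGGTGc

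In the Snai1 window the copy lies 126 to 121 bases before the start. In that of Lsr the 4 copies begin 249, 219, 151 and 69 bases before it. Those of Crb3 begin 118, 63 and 7 bases before the start that follows the window shown.

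Mesenchymal genes moved in both directions, more of them upward. Of 30 genes 25 were tested, and 8 rose, 2 fell and 15 did not pass, with a median of 0.12. Mmp2, a protease of basement membrane collagen, rose by 1.81 ± 0.10, or 3.51-fold (adjusted p = 3.83e-06), from −4.75, −4.92, −4.54 and −4.77 in wild type to −3.11, −3.06, −2.73 and −2.83 in R175Q. Pdgfrb, a PDGF receptor of mesenchymal cells, rose by 1.18 ± 0.10 (adjusted p = 4.86e-05), the protease gene Mmp3 by 0.97 ± 0.21 (adjusted p = 0.0111) and the collagen gene Col1a2 by 0.58 ± 0.09 (adjusted p = 0.00202). Col1a2 nonetheless lay far below the reference in every sample, between −8.40 and −7.54. Loxl2, a lysyl oxidase reported to stabilise Snai1, fell by 1.10 ± 0.10 (adjusted p = 5.43e-05). Rises numbered 5 without R175Q replicate 4, wild-type replicate 1 or wild-type replicate 2, and falls 1 without any of R175Q replicates 1 to 4, wild-type replicate 1 or wild-type replicate 4. With the background fitted on all spots, 1 of the list rose and 0 fell. Col1a2 then stood at 0.087 (adjusted p = 0.9), Pdgfrb at 0.66 (adjusted p = 0.0881), Mmp3 at 0.83 (adjusted p = 0.0693) and Loxl2 at −1.07 (adjusted p = 0.111).

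**Figure D4:**
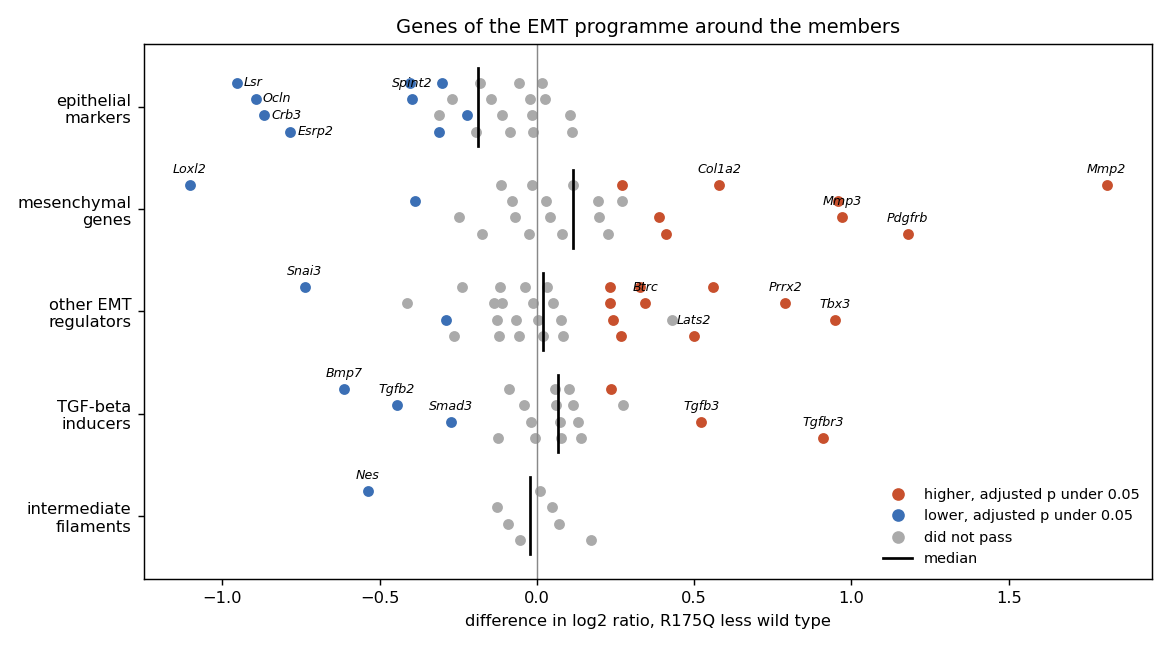
Difference in log2 ratio, R175Q less wild type, for each tested gene of 5 lists around the members, with genes at an adjusted p under 0.05 in orange (higher) or blue (lower), others in grey and the list's median as a black bar. Named are the called genes among the 5 with the lowest p of each list. The epithelial row has no orange point, and the rows labelled other EMT regulators and TGF-beta inducers have points of both colours.

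Inducers upstream of the members, a list of TGF-beta ligands, receptors and effectors, were divided. All 20 were tested, and 3 rose, 3 fell and 14 did not pass, with a median of 0.07. With the background fitted on all spots 0 rose and 1 fell, and of the genes named here Tgfbr3 (0.57), Tgfb3 (0.36), Tgfb1 (0.21), Bmp7 (−0.79) and Tgfb2 (−0.56) no longer passed. Tgfbr3, the co-receptor betaglycan, rose by 0.91 ± 0.08 (adjusted p = 4.65e-05), the ligand gene Tgfb3 by 0.52 ± 0.06 (adjusted p = 0.000348) and the ligand gene Tgfb1 by 0.23 ± 0.05 (adjusted p = 0.0131). Tgfb1 also no longer passed without R175Q replicate 2, at 0.22 (adjusted p = 0.0501), or when slide was blocked, at 0.21 (adjusted p = 0.0724). The ligand Bmp7, which counters TGF-beta in epithelia, fell by 0.61 ± 0.07 (adjusted p = 0.000322), the ligand Tgfb2 by 0.45 ± 0.09 (adjusted p = 0.00615) and the transducer Smad3 by 0.27 ± 0.06 (adjusted p = 0.00774). The ShcA gene itself, Shc1, had a difference of −0.12 ± 0.10 (adjusted p = 0.496), and the receptor gene Erbb2 one of −0.13 ± 0.06 (adjusted p = 0.179). Both groups carry a ShcA cDNA, and whether the Shc1 probe reads it was not determined.

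Markers of other cell types were set beside these results, since the labels call the material microdissected while they describe cultured cells. Above background on at least 1 array were 27 of 32 epithelial markers, among them Cdh1, Epcam, Krt8 and Krt18, with summed Cy3 signals of 377443 to 492945 in R175Q and 472009 to 573249 in wild type. These sums and those below are of signals less local background, and they were not normalized between arrays. The median signal of an array over all probes was 74.0 to 80.6 in R175Q and 69.8 to 75.6 in wild type. Being above background does not by itself identify the cells, since the mesenchymal list had 25 of 30. Of 11 fibroblast and pericyte markers, 5 of them also in the mesenchymal list, 7 were tested, and 3 rose, 0 fell and 4 did not pass. These were Pdgfrb, Dcn (the matrix protein decorin, 0.72 ± 0.14, adjusted p = 0.00492) and Col3a1 (a collagen, 0.39 ± 0.10, adjusted p = 0.0289). The summed Cy3 signal of the list was 1969 to 2485 in R175Q and 1138 to 1295 in wild type, and Lum, Fap, Dpt and Rgs5 were above background on no array. The widest gap in that sum was that of Pdgfrb, at 703 to 1125 in R175Q and 272 to 318 in wild type. Signals of the 4 markers that did not pass overlapped between the groups. Dcn and Col3a1 lay far below the reference, with mean log2 ratios of −7.14 and −8.05 in R175Q and −7.85 and −8.44 in wild type. With the background fitted on all spots Dcn and Col3a1 turned to −0.04 and −0.28. Col3a1 no longer passed without R175Q replicate 3 or 4 or wild-type replicate 1, 2 or 4, where it was 0.33 to 0.40. The part of these markers in the rises of the members was not tested.

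Of the macrophage markers, 10 of 10 on the array stood above background on at least 1 array, with summed Cy3 signals of 42406 to 52559 in R175Q and 37576 to 50686 in wild type. Here too, being above background does not identify the cells. For the 5 macrophage markers with the lowest p, the wild-type mean log2 ratio was −6.18 for Csf1r, −5.43 for Adgre1, −3.21 for Cd68, −2.66 for Aif1 and 4.49 for Mrc1. Of 9 tested, 0 rose and 2 fell, the mannose receptor gene Mrc1 by 0.61 ± 0.09 (adjusted p = 0.000942) and Adgre1 by 0.28 ± 0.08 (adjusted p = 0.0276). The call of Adgre1 was lost without R175Q replicate 1, 2 or 4 or wild-type replicate 1, at −0.29 to −0.23, and when slide was blocked, at −0.26 (adjusted p = 0.0982), and it was lost with the same sign in 14 of 26 alternatives. Mrc1 stood at −0.12 (adjusted p = 0.905) with the background fitted on all spots. Among 4 lymphocyte markers tested, 0 passed (limma; 0 at an unadjusted p under 0.05). Of 3 endothelial markers Vwf rose, by 0.84 ± 0.11, while Cdh5, Tek and Tie1 were above background on no array. Vwf stood at 0.23 (adjusted p = 0.476) with the background fitted on all spots. Of 2 adipocyte markers Fabp4 fell, by 1.02 ± 0.11, and of 5 basal markers the keratin gene Krt17 rose, by 0.38 ± 0.10. The Krt17 call was lost without R175Q replicate 1 (0.38, adjusted p = 0.0615), R175Q replicate 2 (0.34, adjusted p = 0.078) or wild-type replicate 2 (0.34, adjusted p = 0.0683), when slide was blocked (0.34, adjusted p = 0.0629) and with no background correction (0.17, adjusted p = 0.308). The part of these genes in the members' differences was not tested either.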

How the data were processed

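Gene expression was measured in 8 samples on Agilent two-colour arrays of 44397 spots, 153 of them negative controls. Per the labels' protocols, nanogram amounts of RNA were linearly amplified in 2 rounds and labelled with Cy3, and a universal reference was labelled with Cy5. The labels name that reference mouse in one field and human in another, which was not settled. Per the file headers, the spots' mean intensity and the median intensity of the local background, used here, come from Agilent Feature Extraction 9.5.3.1, whose probe coordinates are in mm9. The scanner's log10 ratio and processed intensity were deposited with them. The authors' deposited table gives log2 values that follow the scanner's ratio, turned to Cy3 over Cy5, with r of 0.902 to 0.941 across probes, which are not independent. How it was scaled and centred is not given in the sources used here. It served as an alternative.

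In limma 3.58.1 (R 4.3.3) the background was corrected by normexp with its mean and spread from the negative control spots (offset 50), followed by loess within arrays. This replaced a normexp fit on all spots, which placed the background below the negative controls. Spots of a probe were averaged. A probe was kept when 4 or more of the 8 arrays showed it well above background in Cy3 (22971 probes), less 122 with an outlier flag. The two-sided test of each probe used lmFit and eBayes. Its p-values were adjusted over 22849 probes (Benjamini-Hochberg, threshold 0.05). The ± after a difference is its standard error, and folds are 2 to the power of the difference. The fitting procedure was tested on simulated data.

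Members, lists and tests were chosen with earlier results of these data known. Named were all member probes, up to 5 genes of each list with the lowest p (brightest probe), the 3 genes most like each member, and Shc1, Erbb2, Cdh1, Epcam, Krt8, Krt18 and Tgfb1. Genes outside this rule are said to be so where they occur. Some genes that the rule or a count covers are not reported here. Of 28 alternatives, 1, a robust fit of the negative controls on the log scale, was chosen after seeing the data.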

Additional observations from a re-analysis of the deposited data

Results flagged for a closer look

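One value among the named genes stood apart within its group. In 102 groups of 4 values, the log2 ratio of Pdgfrb in R175Q replicate 3, −1.71, was the only value whose gap to the next one exceeded Dixon's 95% limit. The other R175Q values were −1.28, −1.30 and −1.27, and all 4 wild-type values were lower, from −2.67 to −2.45. Chance flags about 1 in 20 groups.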

How the results depend on the processing

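Over the 28 alternatives the differences of Snai1 and Twist2 passed in 27, at 0.34 to 0.57 and 0.59 to 0.82, Foxc2 in 26 (0.0080 to 1.09), the dim Zeb2 probe in 16 (0.30 to 0.70), Zeb1 in 13 (0.22 to 0.40), and Vim, the bright Zeb2 probe and Snai2 in 0. The 5 called member probes kept their sign in all 28. With normexp fitted on all spots, 484 probes were higher and 432 lower, 2 of them member probes, both higher. Fitted so with slide as a block, 0 were higher and 1 lower, with 0 members and 2617 at an unadjusted p under 0.05. Median centring gave 2791 and 813, scaling between arrays 1041 and 1150, and arrayWeights 3795 and 4860. With the scanner's processed signals and with the Cy3 channel alone 3 members were higher. Leaving out 1 array gave 1290 to 2500 higher and 1462 to 2652 lower probes, the 1462 without wild-type replicate 1, and 3 to 5 members, 3 without R175Q replicate 2 or 3 or wild-type replicate 2 or 4. Snai2 turned to −0.039 with Cy3 alone, −0.072 with arrayWeights, −0.20 without R175Q replicate 3 and −0.11 without wild-type replicate 2. Cdh1 was called lower in the Cy3 channel alone (−0.72, adjusted p = 0.000101), turned to 0.10 with processed signals, 0.067 with median centring and 0.014 with an offset of 16, and ran from −0.073 to 0.060 when 1 array was left out, positive without R175Q replicate 4, wild-type replicate 1 or wild-type replicate 4. Ina turned to 0.0080 with median centring, Adgre1 and Epcam to 0.12 and 0.090 with scaling, Prph to 0.034 with Cy3 alone, and Dcn and Col3a1 to −0.042 and −0.28 with the fit on all spots, Col3a1 to −0.24 with slide as well. The causes were not tested. Same-numbered replicates deviated together with r of 0.327, 0.0127, 0.464 and 0.0542 over all tested probes. R175Q replicates 1 and 3 were most like the wild-type replicate of their own number, and replicates 2 and 4 were not. The numbers were not taken as pairs. With the replicate block 2095 probes were higher and 2514 lower, and 5 members, and Epcam passed (−0.27, adjusted p = 0.0178). Every tested member probe had a smaller standard error with that block. It went from 0.32 to 0.088 for Snai2 and from 0.11 to 0.063 for Twist2, but only from 0.060 to 0.059 for Snai1. Dim probes such as those of Twist1, Prrx1 and Foxc2 are limited by signal over background.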
